A study of Mus musculus with 27 samples.

Results

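Chemokines are small secreted proteins that direct the movement of leukocytes, and they act on seven-pass membrane receptors that signal through Gi proteins. The genes described here are genes of the count files whose mouse symbol is a numbered Ccl or Cxcl ligand or a numbered Ccr or Cxcr receptor, 50 of 41388 gene identifiers, with 36 ligand genes and 14 receptor genes. Their messenger RNA was measured by sequencing in 27 whole livers of ovariectomized female C57BL/6 mice, labelled as 120 days old, with 3 livers in each of 9 groups. The groups were sesame oil vehicle and TCDD at 0.01 and 0.03 µg/kg, 0.1 and 0.3 µg/kg, 1 and 3 µg/kg, and 10 and 30 µg/kg, by gavage at intervals of 4 days over 92 days. One label also calls the dosing daily. TCDD (2,3,7,8-tetrachlorodibenzo-p-dioxin) is a long-lived dioxin that activates the aryl hydrocarbon receptor (AhR), a transcription factor that binds DNA with its partner ARNT at the core sequence GCGTG. All animals, vehicle included, lacked ovaries.

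In the liver, resident macrophages (Kupffer cells), endothelial cells, stellate cells and hepatocytes all make chemokines. CC ligands mostly act on monocytes, dendritic cells and lymphocytes through Ccr receptors. CXC ligands fall into those that draw neutrophils through Cxcr2 (Cxcl1, Cxcl2, Cxcl5), those that are induced by interferon-gamma and act on Cxcr3 (Cxcl9, Cxcl10, Cxcl11), and homeostatic ones such as Cxcl12, the ligand of Cxcr4.

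Of the 50 genes, 46 had at least 1 count and 31 (22 ligands, 9 receptors) had enough counts to be tested. Ccl21b, Ccl26, Ccl27b and Cxcl15 had no counts in any of the 27 libraries. The other 15 untested genes had at most 94 counts over all libraries: Ccl1, Ccl8, Ccl11, Ccl12, Ccl17, Ccl19, Ccl20, Ccl28, Cxcl3, Cxcl17, Ccr4, Ccr6, Ccr8, Ccr10 and Cxcr1. Library totals ran from 11050391 to 30873586 counts in 26 libraries, and the second replicate at 0.3 µg/kg had 434011. The summed hepatocyte markers (Alb, Ttr, Apoa1, Cps1, Hnf4a, Asgr1, Fabp1, Tat) were at 60430 CPM (counts scaled to library size) or more in all 27 livers. All 6 AhR target genes of a list rose at 30 µg/kg, among them Cyp1a1, a monooxygenase gene and the classical readout of AhR activity, at 7201 ± 652 CPM in 30 µg/kg livers and 3.12 ± 0.605 CPM in vehicle livers (SD, n = 3 each). The libraries used 2 sets of index sequences, one for vehicle, 0.01, 0.03, 0.1 and 30 µg/kg and another for 0.3 to 10 µg/kg, so for the 0.3 to 10 µg/kg groups against vehicle the dose and the index set cannot be told apart.

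Levels are given as CPM with trimmed-mean scaling. A gene is called higher or lower when its Benjamini-Hochberg adjusted p over all 15121 genes tested was below 0.05 in edgeR's quasi-likelihood test, and every adjusted p below comes from that test. Fold changes are TCDD over vehicle, and their SE is on the log2 scale.

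The promoters of 5 genes are shown because these genes carry the pattern over dose: Ccr1, Ccl22 and Cxcl14 rose, and Cxcl12 and Ccl9 fell. Each stretch covers 250 bases before to 50 bases after the start annotated by RefSeq on GRCm38.p6, read 5′ to 3′ on the gene's strand. Capitals mark GCGTG on either strand (CACGC where it lies on the other strand). The windows are chr9:123968643-123968942 (minus strand) for Ccr1, chr8:94745434-94745733 (plus) for Ccl22, chr13:56296502-56296801 (minus) for Cxcl14, chr6:117168285-117168584 (plus) for Cxcl12 and chr11:83578587-83578886 (minus) for Ccl9.
Ccr1: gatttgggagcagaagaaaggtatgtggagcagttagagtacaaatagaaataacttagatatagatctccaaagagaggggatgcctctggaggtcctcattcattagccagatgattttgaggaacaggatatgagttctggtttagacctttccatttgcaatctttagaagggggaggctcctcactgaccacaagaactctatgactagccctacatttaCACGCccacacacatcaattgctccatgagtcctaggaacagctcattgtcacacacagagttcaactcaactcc
Ccl22: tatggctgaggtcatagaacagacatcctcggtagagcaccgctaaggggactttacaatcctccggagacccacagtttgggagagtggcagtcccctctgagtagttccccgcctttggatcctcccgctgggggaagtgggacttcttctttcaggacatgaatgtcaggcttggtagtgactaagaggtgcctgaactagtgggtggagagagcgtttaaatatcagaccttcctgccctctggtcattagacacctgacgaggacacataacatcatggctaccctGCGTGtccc
Cxcl14: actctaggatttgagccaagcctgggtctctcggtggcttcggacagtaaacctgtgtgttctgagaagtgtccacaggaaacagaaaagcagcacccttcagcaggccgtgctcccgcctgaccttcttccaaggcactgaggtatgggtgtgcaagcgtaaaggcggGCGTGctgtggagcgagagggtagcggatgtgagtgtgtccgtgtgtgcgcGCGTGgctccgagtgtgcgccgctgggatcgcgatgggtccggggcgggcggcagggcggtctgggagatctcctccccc
Cxcl12: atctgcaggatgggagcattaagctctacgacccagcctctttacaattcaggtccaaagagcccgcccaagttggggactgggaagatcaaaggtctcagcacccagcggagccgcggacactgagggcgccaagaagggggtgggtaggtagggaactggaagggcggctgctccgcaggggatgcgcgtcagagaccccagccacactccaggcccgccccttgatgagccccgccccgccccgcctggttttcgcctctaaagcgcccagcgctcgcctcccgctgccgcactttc
Ccl9: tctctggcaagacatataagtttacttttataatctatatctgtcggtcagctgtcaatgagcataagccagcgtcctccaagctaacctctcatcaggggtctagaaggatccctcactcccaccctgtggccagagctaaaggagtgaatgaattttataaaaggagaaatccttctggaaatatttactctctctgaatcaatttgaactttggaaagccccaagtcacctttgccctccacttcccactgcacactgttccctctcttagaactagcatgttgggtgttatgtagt

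The Ccr1 and Ccl22 windows held 1 GCGTG each and the Cxcl14 window held 2, while the Cxcl12 and Ccl9 windows held 0. The Ccl9 window held 1 match to the NF-kappaB consensus motif, and the other 4 windows held 0, so no window shown held both motifs. RefSeq windows were found for 36 of the 50 genes, of which 16 held GCGTG and 9 the NF-kappaB motif on either strand. Of all 32841 windows of 300 bases, 32.4% held GCGTG and 4.51% the NF-kappaB motif. These shares are per window, whereas a gene was counted if any of its windows held the motif, so they are unlike measures. Among the 14 genes called higher at 30 µg/kg, 9 had a window, of which 5 held GCGTG and 1 the NF-kappaB motif. Among the 6 called lower, 5 had a window, of which 2 held GCGTG and 2 the NF-kappaB motif. The 2 with GCGTG were Ccl25, with 2 windows, and Ccl27a, with 3. A match is only a run of letters in these windows.

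From 0.01 to 0.3 µg/kg, 0 of the 31 tested chemokine and receptor genes were called. At 1 µg/kg 14 genes rose and 0 fell, at 3 µg/kg 1 rose and 2 fell, at 10 µg/kg 12 rose and 4 fell, and at 30 µg/kg 14 rose and 6 fell, of 31 tested each time. Ccl22 alone was called at all 4 of these doses. Over dose rank from 0 (vehicle) to 8 (30 µg/kg), 18 genes had a rising and 5 a falling slope. Each receptor called at any dose was called higher, and each gene called lower was a ligand.

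The same test over all genes called 0%, 0.0397%, 0.192% and 1.18% of genes in order from 0.01 to 0.3 µg/kg. At these doses edgeR's unadjusted p was below 0.05 for 4, 0, 1 and 2 of the 31 genes, and DESeq2 called 0 at each of them. Over all genes 19.4% were called at 1 µg/kg (11.1% higher, 8.21% lower), 10.1% at 3 µg/kg (5.17% higher, 4.89% lower), 22.5% at 10 µg/kg (11.3% higher, 11.2% lower) and 37.4% at 30 µg/kg (18% higher, 19.4% lower). The dose-rank slope was called for 46.6% of all genes, 23.3% in each direction. Of the 31 chemokine and receptor genes, 45.2% were called at 1 µg/kg, 9.68% at 3 µg/kg, 51.6% at 10 µg/kg and 64.5% at 30 µg/kg. The share at 3 µg/kg is near that of all genes. Called higher were 45.2% of the 31 genes at 1 µg/kg, 38.7% at 10 µg/kg and 45.2% at 30 µg/kg, while the shares called lower, 12.9% at 10 µg/kg and 19.4% at 30 µg/kg, are near those of all genes. Their median log2 fold change was 1.195 at 1 µg/kg, 1.13 at 10 µg/kg and 1.215 at 30 µg/kg, beside -0.001, -0.029 and -0.012 over all genes. A gene with very few counts in vehicle could enter the test through the group in which it was high, so these shares are a description. All comparisons use the same 3 vehicle livers.

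**Figure D1:**
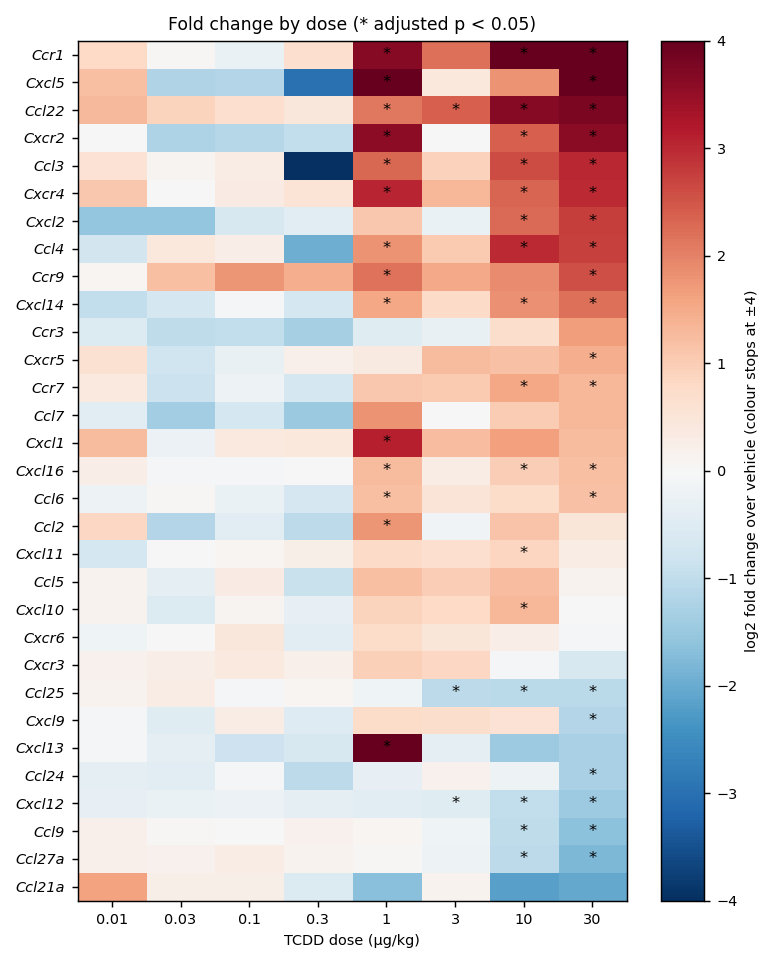
Colours give the log2 fold change over vehicle (n = 3 livers each) of the 31 tested chemokine and receptor genes (rows, ordered by the 30 µg/kg value) at each TCDD dose in µg/kg (columns), with the colour scale ending at 4 in both directions and asterisks marking adjusted p below 0.05. Asterisks are absent from 0.01 to 0.3 µg/kg, are 14 at 1 µg/kg and 3 at 3 µg/kg, and reach 20 at 30 µg/kg.

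Ccr1, the receptor for Ccl3, Ccl5, Ccl6 and Ccl9 on monocytes and neutrophils, had the largest fold change of the 31 genes at 30 µg/kg. It lies on chromosome 9 (GRCm38, 123962124 to 123968692, minus strand). Ccr1 had 10.2, 3.65 and 10.5 CPM in the 30 µg/kg livers, against 0.0746, 0.0523 and 0.241 CPM in the vehicle livers, a fold change of 61.2 (log2 5.94 ± 0.702 SE, adjusted p = 4.86e-07). It had 1.44, 1.39 and 3.88 CPM in the 10 µg/kg livers (16.9-fold over vehicle, adjusted p = 0.000169). Every liver at 1, 3, 10 and 30 µg/kg was above every vehicle liver, although the 3 µg/kg livers (0.634 ± 0.149 CPM, SD, n = 3) did not pass the test (adjusted p = 0.0959). Vehicle levels rest on 9 counts in all, and without vehicle replicate 3 the fold was 114 at 30 µg/kg and 31.8 at 10 µg/kg; without 10 µg/kg replicate 3 it was 11-fold at 10 µg/kg. Ccr1 was also the one gene of the family that was higher at 30 than at 10 µg/kg, 3.62-fold (adjusted p = 0.0451), with 1 liver of each dose overlapping; the call was lost when any 1 of 14 libraries was left out, and the adjusted p was 0.194 to 0.258 without 10 µg/kg replicate 1 or 2 or 30 µg/kg replicate 1 or 3, while without 10 µg/kg replicate 3 the difference was 5.68-fold (0.0167). Per kilobase of exon, Ccr1 rose to 2.86 CPM in 30 µg/kg livers, the highest level among the receptor genes described here, against 0.0433 CPM in vehicle livers.

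Cxcr4, the receptor for Cxcl12 that most leukocytes carry, had 4.70, 3.03 and 4.41 CPM in the 30 µg/kg livers, against 0.485, 0.575 and 0.482 CPM in the vehicle livers. The groups did not overlap, and the fold change was 7.83 (log2 2.97 ± 0.476 SE, adjusted p = 2.41e-05). Livers at 10 µg/kg had 2.24, 2.83 and 2.66 CPM, 4.98-fold above vehicle (adjusted p = 0.000868). Cxcr2, the receptor through which neutrophils follow Cxcl1, Cxcl2 and Cxcl5, had 2.44, 1.73 and 3.72 CPM in the 30 µg/kg livers, against 0.299, 0.157 and 0.161 CPM in the vehicle livers (12.1-fold, log2 3.60 ± 0.808 SE, adjusted p = 0.00116). In the 10 µg/kg livers Cxcr2 was 5.24-fold above vehicle (adjusted p = 0.0399), a call that was lost without any 1 of the 6 livers compared (adjusted p = 0.0528 to 0.132). All 30 µg/kg livers exceeded all 10 µg/kg livers for both receptors, but neither of these differences passed the test (adjusted p = 0.400 for Cxcr4 and 0.331 for Cxcr2).

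The lymphocyte homing receptors Ccr7 and Cxcr5 also rose at 30 µg/kg. Ccr7, which guides T cells and dendritic cells to lymph nodes, had 1.97, 1.23 and 1.81 CPM in the 30 µg/kg livers and 0.821, 0.680 and 0.482 CPM in the vehicle livers (2.50-fold, log2 1.32 ± 0.428 SE, adjusted p = 0.0168). In the 10 µg/kg livers it was 2.90-fold above vehicle (adjusted p = 0.0102, and 0.062 without vehicle replicate 3). Cxcr5, the B cell receptor for Cxcl13, had 1.34, 1.23 and 0.904 CPM in the 30 µg/kg livers, against 0.709, 0.366 and 0.161 CPM in the vehicle livers (2.77-fold, log2 1.47 ± 0.480 SE, adjusted p = 0.0179). Neither gene overlapped between the groups, but both calls were lost without 1 liver: Ccr7 had an adjusted p of 0.0793 without vehicle replicate 3 and 0.0626 without 30 µg/kg replicate 1, and Cxcr5 one of 0.0574, 0.112 and 0.0599 without vehicle replicate 2, vehicle replicate 3 and 30 µg/kg replicate 1. The Cxcr5 fold was 4.54 without vehicle replicate 1. Ccr9, the receptor for Ccl25, stayed below 1 CPM in every group. Relative to vehicle it was up 5.95-fold at 30 µg/kg (log2 2.57 ± 0.713 SE, adjusted p = 0.00592) and 4.54-fold at 1 µg/kg (adjusted p = 0.0402). The 1 µg/kg call was lost without any 1 of the 3 vehicle livers or without 1 µg/kg replicate 1 or 3 (adjusted p = 0.0534 to 0.215), the fold was 9.18 at 30 µg/kg and 6.98 at 1 µg/kg without vehicle replicate 3, and at 1 µg/kg it was 3.01 without 1 µg/kg replicate 3. The genes AC165425.1 and Slc6a20a overlap 19% of the exonic bases of Ccr9 on the other strand, and Gm17200 overlaps 2.62% on the same strand.

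Ccr3, the eotaxin receptor of eosinophils, was below 1 CPM in all groups and was called only in the dose-rank slope (log2 0.25 ± 0.079 SE per rank, adjusted p = 0.00978, but 0.0601 without 30 µg/kg replicate 1). Of 9 eosinophil, basophil and mast cell markers 2 had enough counts to be tested and both rose at 30 µg/kg, with sums of 2.27 to 3.23 CPM in 30 µg/kg livers and 0.0803 to 0.209 CPM in vehicle livers. Siglecf, an eosinophil surface lectin, rose 16.4-fold (adjusted p = 7.71e-05), and the eosinophil peroxidase gene Epx was at 0 in both groups. The part of these cells in the Ccr3 level was not tested. Cxcr3 and Cxcr6, receptors of effector T cells and of liver natural killer and T cells, were called in no comparison. Cxcr3 had 0.423 ± 0.136 CPM in 30 µg/kg livers and 0.668 ± 0.266 CPM in vehicle livers, and Cxcr6 had 0.919 ± 0.0823 CPM in 30 µg/kg livers and 0.936 ± 0.347 CPM in vehicle livers (SD, n = 3 each).

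Ccl22, a ligand of Ccr4 made by macrophages and dendritic cells, rose at each dose from 1 to 30 µg/kg. The 1 µg/kg livers had 0.535, 0.536 and 1.58 CPM, the 3 µg/kg livers 0.815, 1.23 and 1.16 CPM, the 10 µg/kg livers 2.31, 2.55 and 2.83 CPM, and the 30 µg/kg livers 3.53, 3.23 and 1.60 CPM. The vehicle livers had 0.261, 0.262 and 0.0803 CPM, and all livers at each of these 4 doses lay above all vehicle livers. The fold changes were 4.28 at 1 µg/kg (adjusted p = 0.0154), 5.29 at 3 µg/kg (adjusted p = 0.00961), 12.5 at 10 µg/kg (adjusted p = 3.2e-05) and 13.7 at 30 µg/kg (log2 3.78 ± 0.565 SE, adjusted p = 9.96e-06). The 1 µg/kg call did not hold without vehicle replicate 3 (adjusted p = 0.0892) or 1 µg/kg replicate 3 (0.151), nor the 3 µg/kg call without vehicle replicate 3 (0.0724). Its fold at 1 µg/kg was 2.64 without 1 µg/kg replicate 3. Ccl22 lies on chromosome 8 (GRCm38, 94745590 to 94751699). The nearby gene Ccl17, the other ligand of Ccr4, had too few counts to be tested, with 27 counts in the 30 µg/kg livers and 3 in the vehicle livers, a depth-scaled ratio of 9.29 (95% interval 2.86 to 47.8, for counting error only).

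The CC ligands of macrophages followed. Ccl4, a macrophage inflammatory protein, had 1.43, 0.730 and 1.01 CPM in the 30 µg/kg livers, against 0.261, 0.0523 and 0.120 CPM in the vehicle livers (6.70-fold, log2 2.74 ± 0.602 SE, adjusted p = 0.000832). The 10 µg/kg livers had 1.17, 0.742 and 1.86 CPM (7.99-fold over vehicle, adjusted p = 0.000587). Without vehicle replicate 1 these folds were 11.2 and 13.4. Its 1 µg/kg call (adjusted p = 0.0489) was lost when any 1 of 19 libraries was left out, at up to 0.549 without 1 µg/kg replicate 3, where the fold was 1.58, against 3.49 with all libraries. Ccl3, its neighbour on chromosome 11 and a ligand of Ccr1, was below 1 CPM in the mean of every group and rose 8.01-fold at 30 µg/kg (log2 3.00 ± 0.655 SE, adjusted p = 0.000912), on 62 counts in the 30 µg/kg livers and 8 in the vehicle livers. Without vehicle replicate 1 it was 18.5-fold. Ccl3 was also called at 10 µg/kg (6.16-fold) and at 1 µg/kg (4.96-fold), which were 14.4 and 11.4 without vehicle replicate 1, and the 1 µg/kg call was lost without vehicle replicate 2 or 3 or 1 µg/kg replicate 1 or 3 (adjusted p = 0.0626 to 0.103). Ccl6, a rodent ligand of Ccr1, had 21.4, 12.8 and 20.3 CPM in the 30 µg/kg livers, against 8.62, 9.10 and 6.58 CPM in the vehicle livers, with no overlap (2.24-fold, log2 1.16 ± 0.293 SE, adjusted p = 0.00286). Ccl5, a ligand of Ccr1 and Ccr3 made by T and NK cells, was called in no comparison, at 1.85 ± 1.21 CPM in 30 µg/kg livers and 1.68 ± 1.36 CPM in vehicle livers (SD, n = 3 each). Ccl7, a monocyte attractant, stayed near or below 1 CPM and was called only in the dose-rank slope (log2 0.25 ± 0.083 SE per rank, adjusted p = 0.0153, and 0.0502 with the index set as a term).

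Of the epithelial and membrane-bound CXC ligands, Cxcl14, which epithelia make constitutively, had 10.6, 6.88 and 7.39 CPM in the 30 µg/kg livers, against 2.61, 0.941 and 1.73 CPM in the vehicle livers. The groups were apart, and the fold change was 4.63 (log2 2.21 ± 0.457 SE, adjusted p = 0.000509). Livers at 10 µg/kg had 4.91, 5.98 and 8.06 CPM (3.53-fold over vehicle, adjusted p = 0.00531). Cxcl16, a membrane-anchored ligand of Cxcr6 that the protease Adam10 can shed, had 22.3, 16.8 and 17.3 CPM in the 30 µg/kg livers, against 10.7, 5.54 and 7.99 CPM in the vehicle livers (2.32-fold, log2 1.21 ± 0.315 SE, adjusted p = 0.00385). In the 10 µg/kg livers it was 1.98-fold above vehicle (adjusted p = 0.0263), and that call did not hold without vehicle replicate 2 or 3 or 10 µg/kg replicate 2 or 3 (0.0561 to 0.13). The gene Zmynd15 overlaps 18.3% of the exonic bases of Cxcl16 on the other strand, and the strand setting of the counting is not given in the sources used here. Of the 6 tested of 7 cholangiocyte markers, 5 rose at 30 µg/kg and 0 fell, with sums of 111.5 to 338.1 CPM in 30 µg/kg livers and 42.4 to 59.3 CPM in vehicle livers. Among them Epcam, an epithelial adhesion molecule, rose 13.1-fold (adjusted p = 2.36e-05) and Krt19, a biliary keratin, 11.4-fold (adjusted p = 1.38e-06). At 10 µg/kg 2 of the 6 markers rose and 1 fell (65.5 to 177.4 CPM). At 1 µg/kg, where both ligands were also called higher, 0 rose and 1 fell (51.1 to 87.2 CPM). The part of cholangiocytes in the Cxcl14 and Cxcl16 levels was not tested.

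**Figure D2:**
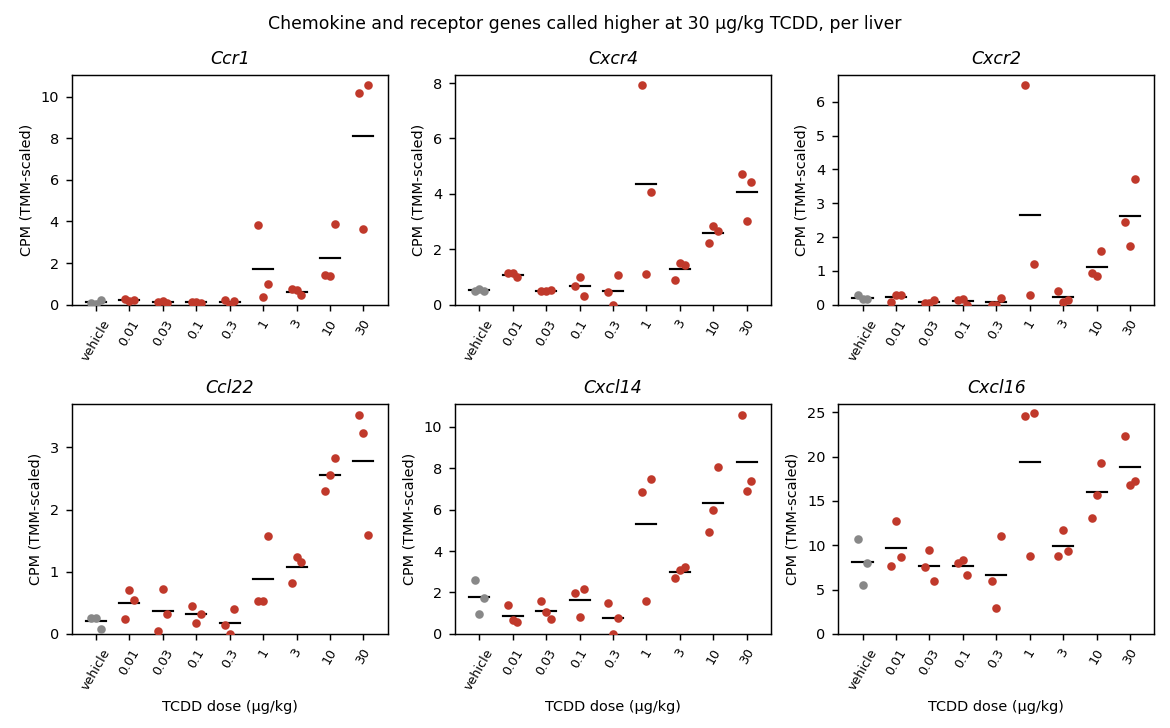
Points give the level in CPM of 6 genes called higher at 30 µg/kg in each of the 27 livers, by TCDD dose in µg/kg with vehicle at the left, and bars give group means. All 3 livers at 10 and at 30 µg/kg lie above the 3 vehicle livers in each panel, and the 1 µg/kg livers spread widely, from 1.11 to 7.91 CPM for Cxcr4.

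The neutrophil attractants of the CXC group rest on few counts. Cxcl5 had 1.85, 0.576 and 0.638 CPM in the 30 µg/kg livers, against 0.0746, 0 and 0.0401 CPM in the vehicle livers. These came from 71 counts and 3 counts, a ratio of 24.4 (95% interval 8.02 to 121, for counting error only), and the test called the gene (adjusted p = 0.0054). Cxcl2 was below 1 CPM in the mean of every group and was called higher at 30 µg/kg (6.77-fold, adjusted p = 0.00326) and 10 µg/kg (4.86-fold, adjusted p = 0.0241), from 46 counts at 30 µg/kg, 37 at 10 µg/kg and 7 in vehicle. Without vehicle replicate 1 these folds were 13.8 and 9.94, and the 10 µg/kg call was lost without vehicle replicate 2 or 3 or 10 µg/kg replicate 3 (adjusted p = 0.0838 to 0.118). Cxcl1 had 5.16, 5.22 and 9.09 CPM in the 30 µg/kg livers and 2.50, 1.83 and 3.65 CPM in the vehicle livers, all above, yet it did not pass the test (2.41-fold, log2 1.27 ± 0.825 SE, adjusted p = 0.243). Cxcl3 had 13 counts in the 30 µg/kg livers and 0 in every other group, at least 1.59-fold higher than the floor of 3 counts per vehicle library.

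Markers of several leukocyte types, but not all, moved in the same livers. All 10 tested of 11 neutrophil markers rose at 30 µg/kg, and their summed level was 64.9 to 161.8 CPM in 30 µg/kg livers and 3.14 to 5.71 CPM in vehicle livers, where the defining marker Ly6g was at 0. Of the 10 monocyte and recruited macrophage markers 8 rose, with sums of 150.9 to 420.7 CPM in 30 µg/kg livers and 26.7 to 39.7 CPM in vehicle livers. Of the 8 B cell and plasma cell markers 6 rose, with sums of 22.5 to 28.1 CPM in 30 µg/kg livers and 5.70 to 8.80 CPM in vehicle livers. Of the 5 tested of 6 dendritic cell markers 3 rose and 1 fell (13.9 to 15.1 CPM in 30 µg/kg livers, 11.3 to 12.4 CPM in vehicle livers), and of the 12 T cell markers 2 rose (11.1 to 17.3 CPM in 30 µg/kg livers, 5.34 to 8.92 CPM in vehicle livers). NK cell markers were not called, with 0 of 7 tested higher or lower (5.84 to 6.59 CPM in 30 µg/kg livers, 3.97 to 7.65 CPM in vehicle livers). Of the 7 Kupffer cell markers 0 rose and 1 fell, with sums of 173.8 to 319.3 CPM in 30 µg/kg livers and 232 to 349.2 CPM in vehicle livers. The part of these cells in the higher receptor and ligand levels was not tested. In whole-liver RNA, more or fewer cells of a type and more or less RNA per cell cannot be told apart.

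Cxcl12, which retains Cxcr4-bearing cells and is made by stromal and sinusoidal cells, was the most abundant gene of the family and was called lower at the upper doses. It lies on chromosome 6 (GRCm38, 117168535 to 117181367). It had 188.2, 250.7 and 183.5 CPM in the 30 µg/kg livers, against 525.3, 555.6 and 638.8 CPM in the vehicle livers, with no overlap (2.76-fold lower, log2 -1.47 ± 0.151 SE, adjusted p = 3.7e-08). Livers at 10 µg/kg had 296.3, 295.0 and 272.8 CPM (1.99-fold lower, adjusted p = 2.14e-05). The 3 µg/kg livers had 382.2, 411.8 and 440.1 CPM (1.39-fold lower, adjusted p = 0.0385), a call that 2 other scaling methods did not give (adjusted p = 0.0554 and 0.0596) and that was lost when any 1 of 18 libraries was left out, all 6 livers compared among them (0.0502 to 0.215). Cxcl12 was not called from 0.01 to 1 µg/kg, yet every treated liver of the study lay below all 3 vehicle livers. In dose order from 0.01 to 1 µg/kg, the group means were 452.6, 477.9, 485.3, 447.4 and 431.6 CPM, beside 573.3 CPM for vehicle. The highest treated liver, replicate 1 of the 0.1 µg/kg group, had 523 CPM, just under the lowest vehicle liver. Each Cxcl12 fold is measured against these vehicle livers. Per kilobase of exon Cxcl12 stood at 25.4 CPM in 30 µg/kg livers and 70.1 CPM in vehicle livers, above every other gene of the family in both groups. Its receptor Cxcr4 was called higher at 10 and 30 µg/kg and also at 1 µg/kg, where Cxcl12 was not called, but not at 3 µg/kg. Ackr3, the scavenging receptor for Cxcl12, which was chosen after its values were seen, rose 3.57-fold in the 30 µg/kg livers (adjusted p = 1.36e-05) and 4.15-fold in the 10 µg/kg livers (adjusted p = 5.35e-06).

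Ccl9, a rodent ligand of Ccr1, ranked next in vehicle livers per kilobase of exon, at 7.42 CPM in 30 µg/kg livers and 22.97 CPM in vehicle livers. It had 25.0, 27.6 and 15.2 CPM in the 30 µg/kg livers, against 69.8, 71.4 and 68.7 CPM in the vehicle livers, a close group (3.09-fold lower, log2 -1.63 ± 0.188 SE, adjusted p = 2.46e-07). The 10 µg/kg livers had 31.97, 44.3 and 28.4 CPM (2.01-fold lower, adjusted p = 0.000254), and at 3 µg/kg the livers overlapped vehicle (adjusted p = 0.66). Ccl9 (chromosome 11, GRCm38, 83572919 to 83578636) lies beside Ccl6 (83587882 to 83593087), which rose at 30 µg/kg.

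The other ligands that fell had a few CPM. Ccl27a, a ligand of Ccr10 known from skin, had 1.09, 1.15 and 0.532 CPM in the 30 µg/kg livers, against 3.36, 3.24 and 3.17 CPM in the vehicle livers (3.45-fold lower, log2 -1.79 ± 0.322 SE, adjusted p = 0.000102). The 10 µg/kg livers were 2.05-fold lower (adjusted p = 0.0161, but 0.0566 and 0.118 without 10 µg/kg replicate 1 and 3), and its near-identical copy Ccl27b had 0 counts. Ccl25, the gut and thymus ligand of Ccr9, had 1.47, 1.46 and 1.60 CPM in the 30 µg/kg livers, 1.60, 1.53 and 1.31 CPM in the 10 µg/kg livers and 1.22, 1.76 and 1.62 CPM in the 3 µg/kg livers, against 2.65, 2.93 and 3.89 CPM in the vehicle livers. It was 2.09-fold lower at 30 µg/kg (log2 -1.07 ± 0.240 SE, adjusted p = 0.00105), 2.13-fold lower at 10 µg/kg (adjusted p = 0.00161) and 2.05-fold lower at 3 µg/kg (adjusted p = 0.00662). These 3 groups lie at one level, below all vehicle livers, while the 1 µg/kg livers overlapped vehicle. The 3 µg/kg call did not hold without vehicle replicate 3 (adjusted p = 0.0646) or 3 µg/kg replicate 1 (0.0511). Ccl24, an eosinophil attractant that acts on Ccr3, had 0.840, 1.46 and 1.06 CPM in the 30 µg/kg livers, against 4.33, 1.94 and 2.01 CPM in the vehicle livers (2.46-fold lower, log2 -1.30 ± 0.446 SE, adjusted p = 0.024). Vehicle replicate 1 stands above the other vehicle livers, and without it the adjusted p was 0.222; without 30 µg/kg replicate 1 or 3 it was 0.115 or 0.0732. The eosinophil, basophil and mast cell markers described with Ccr3 rose in the same livers. Ccl21a, a lymphatic ligand of Ccr7, was below 1 CPM in the mean of every group and fell only in the dose-rank slope (log2 -0.36 ± 0.087 SE per rank, adjusted p = 0.00125). Its highest group mean was at 0.01 µg/kg, at 0.815 ± 0.384 CPM, beside 0.267 ± 0.149 CPM in vehicle livers (SD, n = 3 each).

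**Figure D3:**
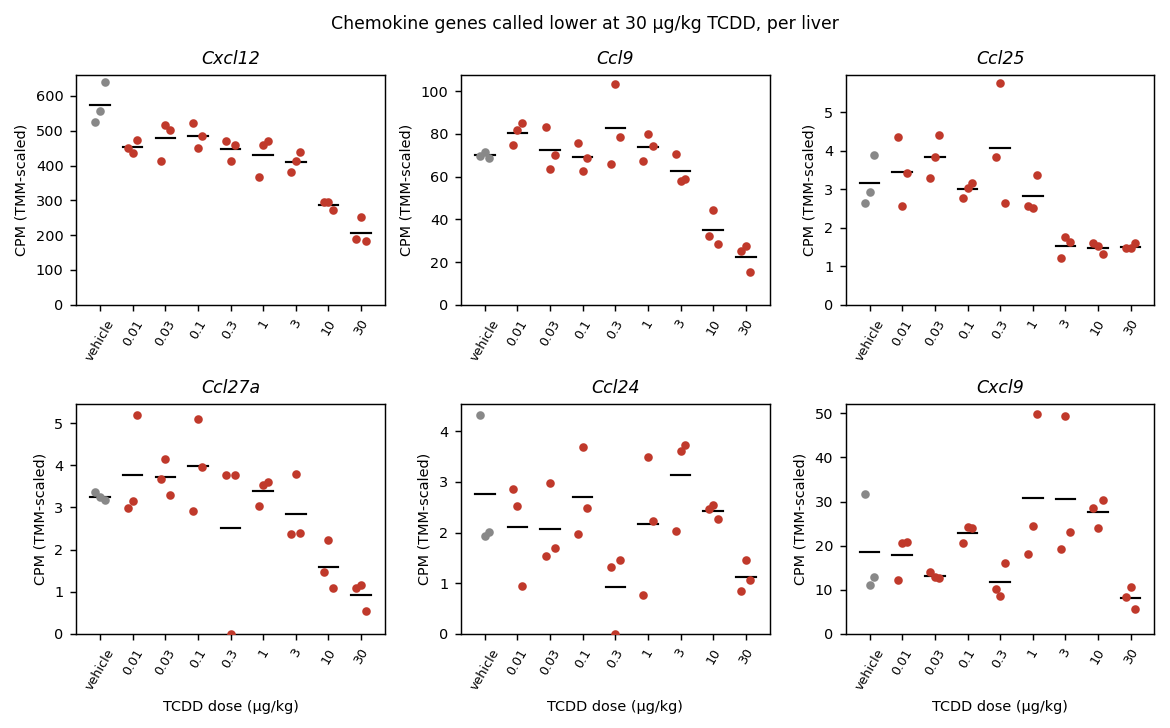
Points give the level in CPM of the 6 genes called lower at 30 µg/kg in each of the 27 livers, by TCDD dose in µg/kg with vehicle at the left, and bars give group means. Cxcl12 steps down at 10 and 30 µg/kg, Ccl25 lies between 1.22 and 1.76 CPM at 3, 10 and 30 µg/kg, and Cxcl9 falls below vehicle at 30 µg/kg after higher values at 1 to 10 µg/kg.

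Hepatocyte markers were lower in the same livers, at a sum of 60430 to 105200 CPM in 30 µg/kg livers and 120600 to 234000 CPM in vehicle livers, with 5 of 8 called lower. Of the 8 sinusoidal endothelial markers 0 rose and 1 fell (225.3 to 348 CPM in 30 µg/kg livers, 247.8 to 319.9 CPM in vehicle livers), and of the 9 stellate cell markers 3 rose and 1 fell (532.3 to 865.1 CPM in 30 µg/kg livers, 324.3 to 400.5 CPM in vehicle livers). The part of these cells in the lower ligand levels was not tested.

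The 3 interferon-inducible ligands of Cxcr3 lie close together on chromosome 5 and were higher at 10 µg/kg or lower at 30 µg/kg. Cxcl10 had 13.9, 8.67 and 13.3 CPM in the 10 µg/kg livers, against 7.57, 2.67 and 4.01 CPM in the vehicle livers, all above (2.49-fold, log2 1.32 ± 0.381 SE, adjusted p = 0.0147). At 30 µg/kg it had 6.17, 6.11 and 2.29 CPM, overlapping vehicle (adjusted p = 0.963). Cxcl11 had 14.3, 9.55 and 11.9 CPM in the 10 µg/kg livers, against 5.30, 8.63 and 6.02 CPM in the vehicle livers (1.80-fold, log2 0.85 ± 0.279 SE, adjusted p = 0.0292). The annotation lists Cxcl11 as a polymorphic pseudogene, since C57BL/6 mice carry a frameshift in it, and 41.7% of its exonic bases overlap Gm2673 on the other strand. These 10 µg/kg calls were lost for Cxcl10 without vehicle replicate 2 or 3 or 10 µg/kg replicate 1 (adjusted p = 0.0832, 0.0704 and 0.0524) and for Cxcl11 without vehicle replicate 1 or 3 or 10 µg/kg replicate 1 or 3 (0.102, 0.0942, 0.123 and 0.0561). Both genes also had a rising dose-rank slope (adjusted p = 0.0176 for Cxcl10 and 0.00154 for Cxcl11), which did not pass with the index set as a term (0.463 and 0.0577) or in the groups of the first index set (0.843 and 0.111).

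Cxcl9 had 8.40, 10.7 and 5.58 CPM in the 30 µg/kg livers, against 31.6, 11.2 and 12.96 CPM in the vehicle livers (2.26-fold lower, log2 -1.17 ± 0.405 SE, adjusted p = 0.0266). Vehicle replicate 1 is far above the other vehicle livers, and without it the adjusted p was 0.318 and the log2 fold change -0.53. It was also 0.0781 and 0.131 without 30 µg/kg replicate 1 and 3. Set against the 10 µg/kg livers, which had 28.5, 23.9 and 30.5 CPM, Cxcl9 was 3.34-fold lower at 30 µg/kg (log2 -1.74 ± 0.407 SE, adjusted p = 0.0236). That comparison does not use the vehicle livers, and the doses did not overlap, but its adjusted p was 0.0559 to 0.18 without 10 µg/kg replicate 1 or 2 or 30 µg/kg replicate 1 or 3. The 10 and 30 µg/kg livers also had different index sets, so dose and index set cannot be told apart here. Over all genes, 3.2% were called between 30 and 10 µg/kg (1.38% higher, 1.83% lower), and of the 31 genes Ccr1 and Cxcl9 were called. Of 12 tested interferon response genes 1 rose and 6 fell at 30 µg/kg (median log2 fold change -0.475, beside -0.012 over all genes), and 2 rose and 2 fell at 10 µg/kg. Ifit1, an antiviral effector, had 3.95 ± 0.987 CPM in 30 µg/kg livers and 17.6 ± 0.344 CPM in vehicle livers (SD, n = 3 each, 4.44-fold lower, adjusted p = 4.49e-05). Irf1, of the same list, was not called, at 41.5 ± 10.0 CPM in 30 µg/kg livers and 41.9 ± 4.39 CPM in vehicle livers (adjusted p = 0.967).

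**Figure D4:**
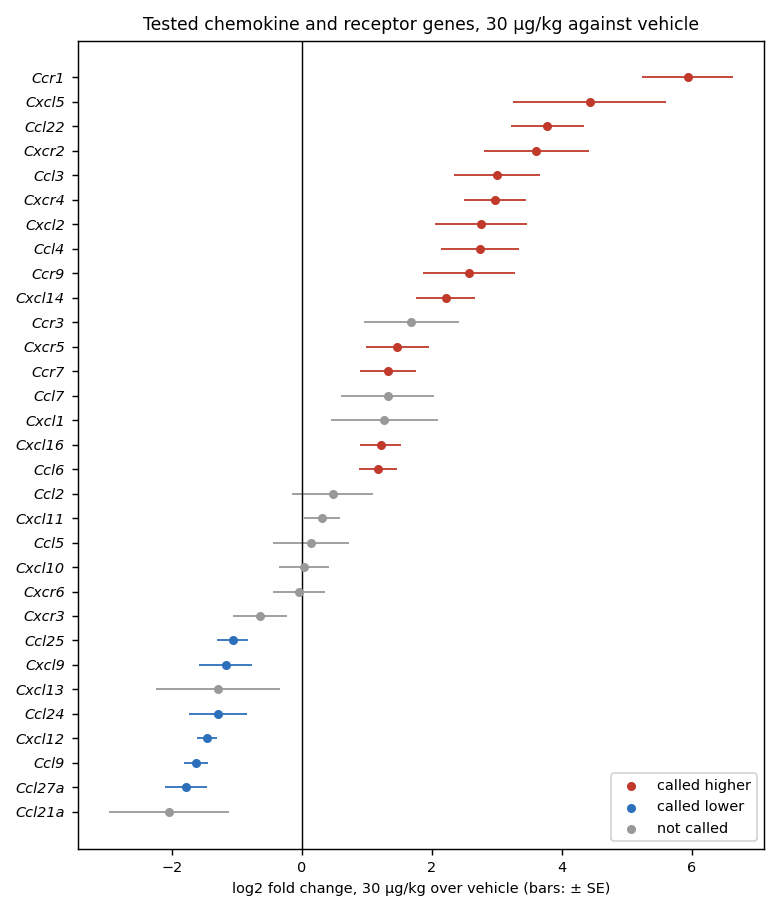
Points give the log2 fold change of each of the 31 tested genes at 30 µg/kg over vehicle (n = 3 livers each), with bars of 1 SE, in red for genes called higher, blue for genes called lower and grey for the rest. The 14 higher genes run from 1.16 (Ccl6) to 5.94 (Ccr1), and the 6 lower ones, all ligands, from -1.79 (Ccl27a) to -1.07 (Ccl25).

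At 1 µg/kg the 14 higher genes were 10 ligands and 4 receptors, and the 3 livers were unlike each other. Cxcl13, the B cell attractant that acts on Cxcr5, had 129.8, 2.00 and 15.8 CPM in the 1 µg/kg livers, against 4.03, 1.78 and 2.05 CPM in the vehicle livers, a mean of 49.2 ± 70.2 CPM at 1 µg/kg and 2.62 ± 1.23 CPM in vehicle (SD, n = 3 each). Replicates 1 and 3 were above all vehicle livers and replicate 2 was within them (18.5-fold, log2 4.21 ± 0.896 SE, adjusted p = 0.00263). Cxcl1 had 55.4, 4.97 and 9.58 CPM in the 1 µg/kg livers, against 2.50, 1.83 and 3.65 CPM in the vehicle livers (8.62-fold, log2 3.11 ± 0.843 SE, adjusted p = 0.0136). Ccl2, the main attractant of inflammatory monocytes, had 11.1, 0.858 and 3.48 CPM in the 1 µg/kg livers, against 2.61, 0.628 and 1.16 CPM in the vehicle livers (3.37-fold, adjusted p = 0.0479). Both were highest in replicate 1, as Cxcl13 was. These 3 genes passed the test at no other dose, and the 30 µg/kg livers had 1.09, 1.34 and 0.744 CPM of Cxcl13 and 2.94, 1.58 and 1.70 CPM of Ccl2. Cxcl1 still lay above all vehicle livers at 3 µg/kg (5.03 to 7.71 CPM), 10 µg/kg (7.85 to 8.85 CPM) and 30 µg/kg. Single livers at lower doses did so as well, with 5.42 CPM in 0.1 µg/kg replicate 1 and 4.55 CPM in 0.3 µg/kg replicate 3. Replicate 2 at 0.01 µg/kg had 15.9 CPM of Cxcl1, above every liver at 3, 10 and 30 µg/kg. Ccl2 had 3.88, 2.32 and 3.63 CPM in the 10 µg/kg livers, overlapping vehicle. The Ccl2 call was lost when any 1 of 23 libraries was left out (adjusted p = 0.0504 to 0.629), and the Cxcl1 call without vehicle replicate 1 or 2 (0.0536 and 0.0628) or 1 µg/kg replicate 1 (0.222). Without 1 µg/kg replicate 1 the folds were 3.35 for Cxcl13 (adjusted p = 0.046), 2.7 for Cxcl1 and 1.41 for Ccl2, and without vehicle replicate 1 the Ccl2 fold was 5.54. In a fit of the 6 compared libraries alone, these 3 genes were not called (adjusted p = 0.148 for Cxcl13, 0.104 for Cxcl1 and 0.262 for Ccl2).

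Of the other calls at 1 µg/kg, 11 were of genes also called at 30 µg/kg, with Ccr1 at 3.81, 0.393 and 0.979 CPM, Cxcr4 at 7.91, 1.11 and 4.08 CPM, Cxcr2 at 6.48, 0.286 and 1.197 CPM and Cxcl5 at 3.45, 0.0357 and 1.09 CPM in replicates 1, 2 and 3. Replicate 2 was the lowest of the 3 livers for each of these 4 genes. Cxcl5 came from 79 counts at 1 µg/kg and 3 in vehicle (ratio 29.5, 95% interval 9.74 to 146, for counting error only). Cxcl16 had 24.6, 8.75 and 24.9 CPM and Cxcl14 had 6.84, 1.57 and 7.45 CPM, so their replicate 2 lay within the vehicle range. The Cxcl14 call was lost without vehicle replicate 2 or 3 or 1 µg/kg replicate 1 or 3 (adjusted p = 0.0667 to 0.11), and the Cxcl16 call without vehicle replicate 2 (0.0502).

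Several leukocyte marker lists, but not all, were also lowest in 1 µg/kg replicate 2 and highest in replicate 1. Summed neutrophil markers were at 1149, 8.54 and 199.8 CPM in 1 µg/kg replicates 1, 2 and 3, against 5.71, 3.14 and 4.21 CPM in the vehicle livers, with all 10 tested markers called higher. Summed Kupffer cell markers were at 1379, 362.1 and 789.4 CPM at 1 µg/kg and 349.2, 268 and 232 CPM in vehicle (5 of 7 called higher), and B cell and plasma cell markers at 60.5, 8.65 and 50.9 CPM at 1 µg/kg and 8.80, 5.70 and 6.98 CPM in vehicle (2 of 8). Summed monocyte and recruited macrophage markers were at 224.4, 41.7 and 140.2 CPM at 1 µg/kg and 39.7, 26.7 and 30.9 CPM in vehicle (9 of 10 called higher). T cell markers did not follow that order, at 8.68, 8.22 and 21.5 CPM at 1 µg/kg and 8.92, 6.59 and 5.34 CPM in vehicle (1 of 12 called higher), nor did NK cell markers, at 14.3, 9.18 and 14.6 CPM at 1 µg/kg and 7.65, 4.81 and 3.97 CPM in vehicle (3 of 7 tested). Their part in the chemokine levels was not tested. Without replicate 1 at this dose, 6 genes were called in place of 14, and those lost were Ccl2, Ccl3, Ccl6, Cxcl1, Cxcl5, Cxcl14, Ccr9 and Cxcr2 (adjusted p = 0.0564 to 0.629). Without replicate 3 it was 8 genes, and without vehicle replicate 2 or 3 it was also 8. Leaving out 1 µg/kg replicate 1 gave 17 genes at 10 µg/kg and 20 at 30 µg/kg.

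**Figure D5:**
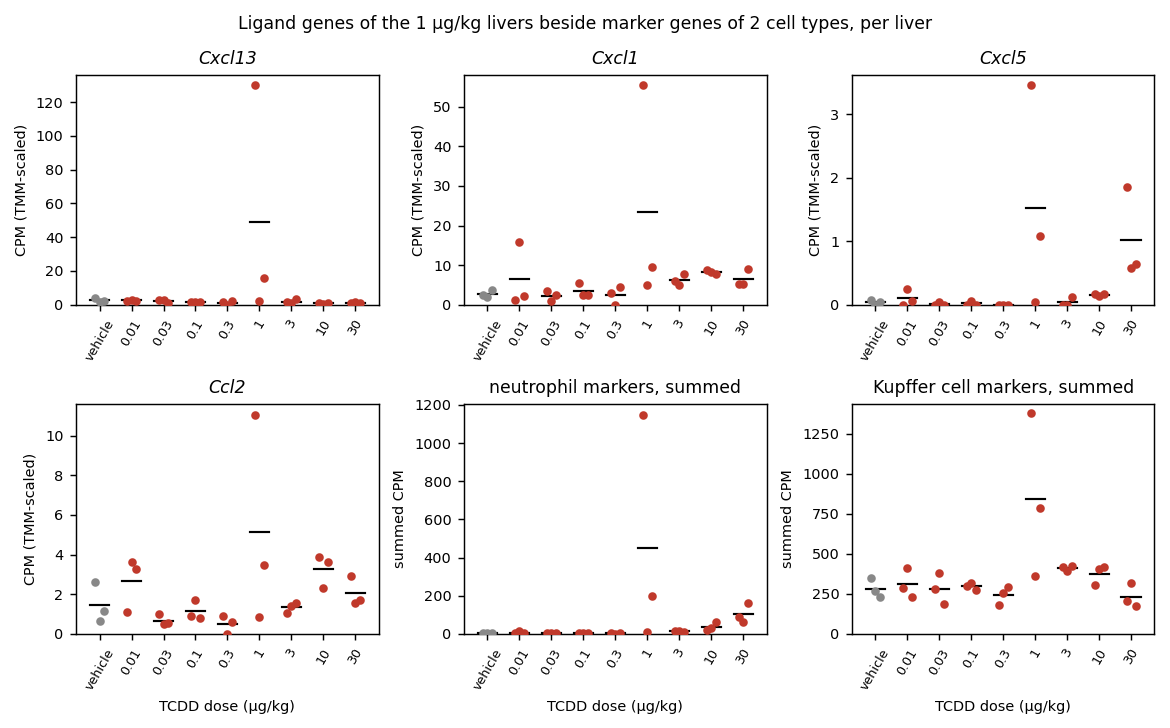
Points give the level in CPM of Cxcl13, Cxcl1, Cxcl5 and Ccl2, and the summed level in CPM of neutrophil and Kupffer cell markers, in each of the 27 livers by TCDD dose in µg/kg with vehicle at the left; bars give group means. In each panel 1 µg/kg replicate 1 is the highest liver of the study, with 1149 CPM of neutrophil markers.

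Genes around the family were read from lists of related genes. Of 14 other chemokine and atypical receptor genes, 5 rose and 2 fell at 30 µg/kg. The platelet chemokines Pf4 and Ppbp rose 9.85-fold (3.69 ± 1.38 CPM in 30 µg/kg livers, 0.370 ± 0.1103 CPM in vehicle livers, adjusted p = 6.03e-06) and 6.54-fold (adjusted p = 0.0014), and Cx3cr1, the fractalkine receptor of monocytes, rose 5.57-fold (adjusted p = 4.43e-05). Of 3 tested platelet markers 1 rose, with sums of 4.79 to 5.42 CPM in 30 µg/kg livers and 3.56 to 5.82 CPM in vehicle livers. Rarres2, the gene of chemerin, a hepatocyte-made attractant, fell 5.91-fold, at 110.2 ± 68.7 CPM in 30 µg/kg livers and 650.9 ± 100.8 CPM in vehicle livers (SD, n = 3 each, adjusted p = 6.22e-07). Its receptor Cmklr1 was not called (adjusted p = 0.487).

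Of 15 genes of chemokine receptor signalling, 5 rose and 1 fell at 30 µg/kg (median log2 0.559). Pik3r5, a regulatory subunit of phosphoinositide 3-kinase gamma, rose 3.68-fold (adjusted p = 0.00414), and Grk3, a receptor kinase, fell 2.58-fold (adjusted p = 0.00571). Gnai2, a Gi subunit, was not called (109.2 ± 21.7 CPM in 30 µg/kg livers, 89.9 ± 5.68 CPM in vehicle livers). Of 15 tested NF-kappaB genes and inflammatory inducers, 6 rose and 1 fell at 30 µg/kg, 3 rose and 0 fell at 10 µg/kg, and 11 rose and 1 fell at 1 µg/kg. The cytokine genes Tnf and Il1b rose 4.73-fold (adjusted p = 0.00883) and 2.53-fold (adjusted p = 0.0329) at 30 µg/kg. Of 8 proteases that can cleave or shed chemokines, 6 rose and 0 fell, among them Mmp12, a macrophage elastase, at 33.6 ± 23.2 CPM in 30 µg/kg livers and 0.448 ± 0.162 CPM in vehicle livers (72.1-fold, adjusted p = 9.71e-07). Mmp8, the neutrophil collagenase, rose as well, to 18.9 ± 11.02 CPM in 30 µg/kg livers against 0.0124 ± 0.0215 CPM in vehicle livers (SD, n = 3 each, adjusted p = 0.00034), and is also one of the neutrophil markers above.

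Among the genes with too few counts to be tested, Ccr6, the receptor for Ccl20, had 24 counts in the 30 µg/kg livers and 2 in the vehicle livers (ratio 12.4, 95% interval 3.07 to 108). Ccl20 had 13 counts in the 30 µg/kg livers and 0 in the vehicle livers, at least 1.48-fold above the floor of 3 counts per vehicle library. Ccl19, a ligand of Ccr7, had 10 counts at 30 µg/kg, 27 at 10 µg/kg and 2 in vehicle, with a ratio of 12.7 at 10 µg/kg (95% interval 3.2 to 110), and also 18 counts at 0.01 µg/kg. Ccl8, a monocyte attractant, had 12 counts at 30 µg/kg and 2 in vehicle (ratio 6.19, 95% interval 1.38 to 57). These intervals cover counting error only and no spread between livers. Ratios were formed only for genes with few counts in vehicle and more at a dose, so only rises could appear here. Among the other untested genes, Ccr4 had 6 counts at 30 µg/kg and 5 in vehicle, and Ccl11 had 7 and 4.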

How the data were processed

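Liver RNA was extracted with TRIzol and sequenced from TruSeq RNA libraries, per the labels' protocols. The authors deposited whole read counts per gene for each of the 27 livers; per the submitters' processing notes the tools were FastQC 0.11.2, cutadapt 1.4.1, TopHat 1.4.1, SAMtools 0.1.19, HTSeq 0.6.1 and DESeq, with GRCm38. Neither the HTSeq strand option nor an annotation release is named there, so reads of overlapping genes on opposite strands may not be told apart, nor those of near-identical copies such as Ccl21a and Ccl21b. Rows that name no gene, with no-feature reads at 5.62% to 11.9% per library, were left out of library sizes.

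Genes passing filterByExpr by group (minimum count 10; 15121 of 41388, or 36.53%) were tested with edgeR 4.0.16 (quasi-likelihood, robust, TMM; R 4.3.3, limma 3.58.1) in 1 fit of all 27 libraries, with each dose against vehicle, 30 against 10 µg/kg, and a slope on dose rank 0 to 8. The p-values were adjusted by Benjamini-Hochberg over all genes and called below 0.05. Replicates are separate animals per the design, and no pair of libraries within a group agreed within sampling noise (lowest chi-square per degree of freedom 6.07). Alternatives were RLE and upper-quartile scaling, no or a stricter low-count filter, DESeq2 1.42.0, a replicate block, the 6 compared libraries alone, log10 dose, the index set, and leaving out each library. The scripts were tested on simulated data.

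Levels are CPM. Exact 95% intervals and the floor of 3 counts per library cover counting error only. Coordinates, exon lengths and overlaps come from GENCODE vM21 on GRCm38. The members and lists were chosen with earlier results of these data known. Genes called at a dose or in the slope with a group mean of at least 1 CPM in some group are given per liver. These values cover vehicle and selected doses only. Other genes are given by means, ranges or counts. Of each list of other genes, up to 4 called genes with the largest fold change at 30 µg/kg and the uncalled one of highest CPM were eligible to be named; Ackr3 was added after its values were seen. Part of the family is not reported here and is left out of all counts of its genes.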

Additional observations from a re-analysis of the deposited data

How the results depend on the processing

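Of all 78 gene and comparison pairs called, 46 kept direction and call in every alternative run that tested the gene. A run that did not test a gene, as under the stricter filter, gave no value for it and was not counted as a lost call. Of 2663 alternative values, 2495 kept both, 168 lost the call and 0 reversed. RLE and upper-quartile scaling called 15 genes at 1, 2 at 3, 17 at 10 and 20 at 30 µg/kg and 24 in the slope, and put the all-gene median log2 fold change at 30 µg/kg at 0.101 and 0.1, where TMM gives -0.012. The fit of the 6 libraries alone called 2 at 1 µg/kg (main 14), 7 at 3 µg/kg (main 3) and 0 between 30 and 10 µg/kg (main 2). Of its 2 calls at 1 µg/kg, 1 was shared with the main fit. Without a low-count filter 1 was called between 30 and 10 µg/kg, and with DESeq2 5. A stricter filter (mean CPM of 1 or more) gave 13 at 30 µg/kg and 13 in the slope, against 20 and 23, where fewer genes are tested. With the index set as a term the slope called 20 genes, and in the first index set alone 22, of which 19 were shared with the fit of all groups. The replicate numbers do not pair the livers (correlations of deviations from -0.335 to 0.337 over pairs of livers), and with the replicate block 0 genes were called from 0.01 to 0.3 µg/kg, 12 at 1, 4 at 3, 17 at 10 and 20 at 30 µg/kg, 2 between 30 and 10 µg/kg and 23 in the slope; the calls lost were Ccl2 (adjusted p = 0.0537, edgeR) and Ccl4 (0.056) at 1 µg/kg. Leaving out 1 library gave 6 to 17 genes at 1 µg/kg, 0 to 5 at 3 µg/kg, 10 to 17 at 10 µg/kg, 16 to 20 at 30 µg/kg, 0 to 5 between 30 and 10 µg/kg, 23 to 25 in the slope and 0 at each lower dose. Counts fell to 10 and 11 at 10 µg/kg without vehicle replicate 3 and 10 µg/kg replicate 3, and at 3 µg/kg to 1 and 0 without 3 µg/kg replicate 1 and vehicle replicate 3, with 5 without 1 µg/kg replicate 1 or 2. Between 30 and 10 µg/kg it was 0 without 10 µg/kg replicate 1 or 2 or 30 µg/kg replicate 1 or 3, 4 without 1 µg/kg replicate 2, 5 without 30 µg/kg replicate 2, and 1 without any of 10 other libraries. Without the shallow 0.3 µg/kg library, 14 were called at 1 µg/kg. The causes of these changes were not tested. Depth limits the genes with under 100 counts, whose intervals are wide.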
